A study of Mus musculus with 14 samples.

Results

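The transcripts described here are those of the hypoxia-inducible factor (HIF) pathway and of its target genes outside glycolysis. They comprise 37 of the 55367 gene symbols in the 2 deposited count tables, taken by symbol, and all 37 were present in both tables. The list holds the HIF subunits, the enzymes that sense oxygen, and genes that HIF is known to induce, and no threshold entered the rule. It was chosen by symbol with the log2 fold changes of both comparisons known, so the calls given for its members describe these libraries and are not a test of the pathway. Messenger RNA was sequenced from lineage-negative bone marrow cells of wild-type mice, that is, marrow depleted of mature blood cells, grown with the cytokines SCF, IL3 and IL6. The first experiment has 3 libraries of cells given a lentivirus with luciferase as control and 3 of cells given a lentivirus with mutant SETBP1, written SETBP1-D868N below. In the second experiment all cells carried SETBP1-D868N and received for 4 days either DMSO, the solvent (4 libraries), or 2.5 µM PF-9363 (4 libraries), an inhibitor of the MYST family of histone acetyltransferases. The labels do not say whether replicates came from separate animals or cultures, so errors measure the spread between these libraries, and they give no oxygen level for the cultures.

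HIF is a pair of proteins, an alpha subunit (HIF1A or EPAS1) and the constant partner ARNT, that binds DNA and switches on genes for life with little oxygen. When oxygen is present, the prolyl hydroxylases EGLN1, EGLN2 and EGLN3 mark the alpha subunit, the VHL ubiquitin ligase recognises the mark, and the subunit is destroyed, while the asparaginyl hydroxylase HIF1AN keeps it from recruiting coactivators. This control acts on protein, so the transcript of an alpha subunit is a poor measure of HIF activity, which was not measured here. Marrow is a tissue of low oxygen, and stem cells, progenitors and myeloid cells use HIF to adjust their metabolism.

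Library totals were 60147266 to 68730322 counts for luciferase and SETBP1-D868N, and 7083731 to 10359093 for DMSO and PF-9363. Levels are given as CPM, counts per 1000000 of the library total after scaling by trimmed mean of M-values (TMM), within an experiment only. A gene was called where edgeR's quasi-likelihood test over all genes gave a Benjamini-Hochberg adjusted p under 0.05. Errors of log2 fold changes, written as standard errors (SE), are the absolute change divided by the square root of that test's F statistic. A call cannot be read from the ratio of change to SE. With SETBP1-D868N, Bnip3 (−1.08, SE 0.21) and Ankzf1 (−0.17, SE 0.048) had edgeR adjusted p of 0.0147 and 0.0125. Reads counted for Setbp1, which may come from the gene or the vector, numbered 5, 6 and 6 counts with luciferase and 23, 20 and 24 with SETBP1-D868N, and 0 to 2 counts in the second experiment, where it gave no check. The 5 progenitor markers (Kit, Cd34, Flt3, Gata2 and Myb) were present in both experiments and went different ways. With SETBP1-D868N, 3 were called higher and 2 lower, with Myb at 0.82 and Kit at −0.66 on the log2 scale. With PF-9363, Gata2 (2.402) and Kit (1.45) were higher and Myb (−2.71) and Flt3 (−1.86) lower. The 4 B cell and 4 T cell markers each summed to at most 1.30 CPM in every library, with Trbc2 at 0 throughout.

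The DNA core that HIF binds is written ACGTG or GCGTG, and the stretches before the starts of 6 genes are printed because these genes showed the main pattern, the prolyl hydroxylases moving in different directions and Bnip3, Ak4 and Adm falling steeply with PF-9363. Sequences are from RefSeq on GRCm38.p6, 5′ to 3′ on the strand of the gene, ending at the start of transcription or before the first annotated exon base. Capitals mark either core on either strand.

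Egln1, chr8:124949325-124949504, minus strand: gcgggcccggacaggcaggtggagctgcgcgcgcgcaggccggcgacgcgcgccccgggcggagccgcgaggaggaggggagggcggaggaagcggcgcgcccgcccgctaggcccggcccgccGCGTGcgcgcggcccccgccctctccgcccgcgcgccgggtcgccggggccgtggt
Egln2, chr7:27166803-27167052, minus strand: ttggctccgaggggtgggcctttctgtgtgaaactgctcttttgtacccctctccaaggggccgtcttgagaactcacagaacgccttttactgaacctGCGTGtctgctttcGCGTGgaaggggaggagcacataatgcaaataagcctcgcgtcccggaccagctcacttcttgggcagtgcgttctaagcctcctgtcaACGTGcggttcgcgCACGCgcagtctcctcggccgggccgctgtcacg
Egln3, chr12:54203875-54204124, minus strand: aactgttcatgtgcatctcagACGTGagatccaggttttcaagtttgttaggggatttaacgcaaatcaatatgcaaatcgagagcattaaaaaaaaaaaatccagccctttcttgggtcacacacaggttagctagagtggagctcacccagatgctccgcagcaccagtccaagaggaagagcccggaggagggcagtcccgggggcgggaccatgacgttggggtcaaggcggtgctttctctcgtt
Bnip3, chr7:138909520-138909756, minus strand: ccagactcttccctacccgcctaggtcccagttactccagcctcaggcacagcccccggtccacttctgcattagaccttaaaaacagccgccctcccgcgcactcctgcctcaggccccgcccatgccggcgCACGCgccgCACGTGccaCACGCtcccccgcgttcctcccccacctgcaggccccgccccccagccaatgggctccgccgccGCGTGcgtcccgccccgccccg
Ak4, chr4:101419039-101419276, plus strand: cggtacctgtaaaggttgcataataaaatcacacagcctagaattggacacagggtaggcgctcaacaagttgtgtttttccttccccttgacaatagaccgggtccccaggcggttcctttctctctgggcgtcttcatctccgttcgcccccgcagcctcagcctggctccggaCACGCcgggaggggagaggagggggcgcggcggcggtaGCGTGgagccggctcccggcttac
Adm, chr7:110627407-110627656, plus strand: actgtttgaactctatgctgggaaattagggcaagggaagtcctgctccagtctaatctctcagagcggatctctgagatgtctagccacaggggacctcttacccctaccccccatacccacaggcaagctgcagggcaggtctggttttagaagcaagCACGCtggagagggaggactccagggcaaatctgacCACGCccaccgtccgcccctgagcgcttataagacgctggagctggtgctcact

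A core stood 5 times in the printed stretch of Bnip3, where its 1 CACGTG was counted on both strands. It stood 4 times in that of Egln2, 2 times in those of Ak4 and Adm and 1 time in those of Egln1 and Egln3. Over the 250 bases before the RefSeq start, 25 of the 29 members with a RefSeq promoter (86.2%) held ACGTG or GCGTG on either strand. Unlike the printed stretches, these windows were not cut at annotated exons. Some of them, such as those of Nampt, P4ha2, Ankrd37 and Hif1a, lie within the gene as GENCODE annotates it. The share was 38.6% of all 27025 symbols with a promoter. Among the 9894 of them that were tested in the second experiment it was 56.3%, and 24 of the 28 members tested there (85.7%) held a core. The list holds genes that HIF is known to induce, so its higher share is no test of the motif, and GC content was not matched. ACGTG is contained in CACGTG, the box of other factors, counted on both strands there, and CACGTG stood in 5 of the 29 members and in 6.05% of all promoters. A core was found before 16 of the 18 members that were called lower with PF-9363 and before 6 of the 8 called higher, so these letters were present on both sides. Of the prolyl hydroxylase genes, Egln2 held 4 cores over its full 250 bases and was the one called higher with PF-9363. Egln1 held 2, of which 1 is in its printed stretch of 180 bases, and Egln3 held 1. These genes were printed because they moved in different directions, and a link between cores and direction was not tested. A match is a string of letters, and binding was not measured.

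The first comparison asked what SETBP1-D868N does to the transcripts of these cells. Most HIF target genes were lower with SETBP1-D868N, by modest amounts. Of the 37 members, 35 passed the expression filter, and 29 of them were called lower, where 22.7% of all 15794 genes tested were called lower. Called higher were 2 members, Hif1a and Hif1an, against 24.5% of all genes, and 47.2% of all genes were called in either direction. The median log2 fold change of the 35 members was −0.45, and that of all genes tested was 0.0043. A fall of at least 2-fold was seen for 5 members, Mgarp, Adm, Ankrd37, Bnip3 and P4ha2, against 2.48% of all genes. Over all genes 3869 were called higher and 3579 lower, and with scaling by library size alone 4905 and 2997, which left 25 members lower and 2 higher. In 29 members every SETBP1-D868N library lay below every luciferase library, against 27.3% of all genes. Ppp1r3c, a glycogen-targeting subunit of a protein phosphatase, and Ndufa4l2, a mitochondrial protein, held at most 2 counts in any library and were not tested.

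**Figure D1:**
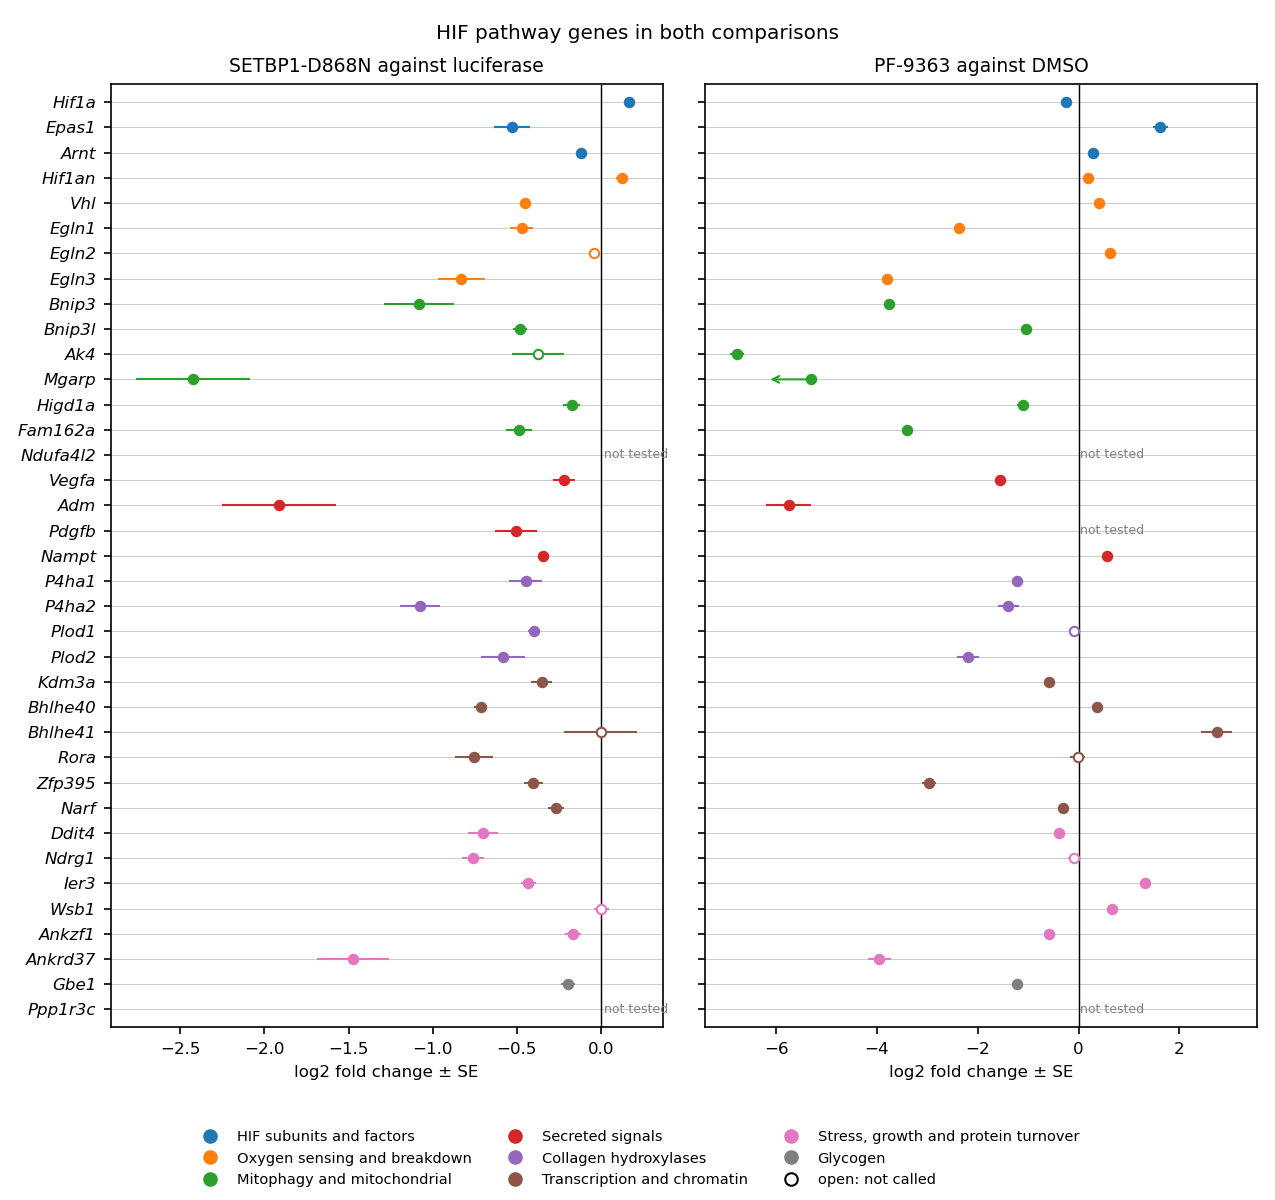
Log2 fold change ± SE of each member with SETBP1-D868N against luciferase (left) and with PF-9363 against DMSO (right), coloured by role; open symbols were not called and the arrow marks a bound for Mgarp, which had 0 counts with PF-9363. Most points on the left lie between 0 and −1, and the points on the right spread from −6.77 for Ak4 to 2.74 for Bhlhe41.

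The transcript of the main alpha subunit moved the other way from most targets. Hif1a stood at 163, 166 and 169.8 CPM in luciferase libraries 1 to 3 and at 183, 193 and 185 CPM in SETBP1-D868N libraries, with a log2 fold change of 0.17 (SE 0.029). Every library with the mutant was higher, by a small margin. Epas1, the alpha subunit better known from endothelium and macrophages, went from 5.003, 4.19 and 4.31 CPM to 3.12, 3.36 and 2.88 CPM (log2 fold change −0.53, SE 0.11). It was scarce in all libraries, and the groups did not overlap. Arnt, the common partner, was at 66.1, 65.6 and 68.2 CPM and at 59.9, 61.3 and 62.7 CPM (−0.12, SE 0.031), a call that was lost when counts were scaled by library size alone (−0.072).

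Among the genes that sense oxygen, Egln3, itself a well-known HIF target, fell most. It stood at 143, 171 and 170.3 CPM with luciferase and at 81.3, 85.6 and 106 CPM with SETBP1-D868N (log2 fold change −0.83, SE 0.14). Egln1, the main hydroxylase of the alpha subunits and also a HIF target, went from 85.5, 95.7 and 95.2 CPM to 61.9, 65.0 and 72.3 CPM (−0.47, SE 0.069). Both genes had their highest mutant level in SETBP1-D868N library 3. Egln2, which is not known as a HIF target, was at 63.7, 67.9 and 63.6 CPM and at 64.4, 62.3 and 63.1 CPM, overlapping groups with a log2 fold change of −0.040 (SE 0.034) that was not called. Vhl went from 69.1, 71.5 and 71.0 CPM to 50, 52.8 and 52.0 CPM (−0.45, SE 0.033), with tight groups well apart. Hif1an rose from 40.5, 40.3 and 39.9 CPM to 44.0, 43.1 and 44.5 CPM (0.12, SE 0.033), a 1.09-fold shift that all libraries shared.

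Mitochondrial targets held the steepest fall. Mgarp, a mitochondrial protein that low oxygen induces, went from 1.79, 2.06 and 1.72 CPM to 0.198, 0.214 and 0.618 CPM (−2.42, SE 0.34). The mutant libraries held 13, 14 and 41 counts, so library 3 had more counts than both others together. Bnip3, a receptor that marks mitochondria for autophagy, went from 87.8, 104 and 107 CPM to 38.5, 42.4 and 59.8 CPM (−1.08, SE 0.21). Its groups were well apart, but the call was lost without luciferase 2 (−1.05), luciferase 3 (−1.03) or SETBP1-D868N 2 (−1.02). Its relative Bnip3l went from 120.2, 130.3 and 134 CPM to 89.5, 90.9 and 94.9 CPM (−0.48, SE 0.041).

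Fam162a, a mitochondrial protein that responds to HIF, went from 60.1, 63.3 and 63.3 CPM to 42.1, 40.8 and 50.2 CPM (−0.49, SE 0.079). Higd1a, a small protein of the inner membrane, was at 32.8, 32.8 and 33.0 CPM and at 30.1, 26.6 and 30.7 CPM (−0.17, SE 0.051), and lost its call under library-size scaling (−0.13). Ak4, a mitochondrial adenylate kinase, was not called. Its levels were 47.8, 53.2 and 53.3 CPM with luciferase and 35.3, 35.2 and 48.6 CPM with SETBP1-D868N (−0.37, SE 0.16). Library 3 of the mutant lay within the luciferase range, and without it the log2 fold change was −0.55 and called.

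All 4 collagen hydroxylases, which modify proline and lysine in collagen chains, were called lower, where 22.7% of all genes were. P4ha2 went from 7.82, 9.68 and 9.71 CPM to 4.02, 3.85 and 5.002 CPM (−1.08, SE 0.12), and P4ha1 from 117, 134 and 133 CPM to 85.7, 90.3 and 105 CPM (−0.45, SE 0.10). The groups did not overlap for either, but the P4ha1 call was lost without luciferase 3, without SETBP1-D868N 2 or without the expression filter. Plod2 went from 10.8, 12.9 and 13.4 CPM to 7.07, 7.92 and 9.69 CPM (−0.58, SE 0.13). Plod1 changed by −0.40 (SE 0.037), from 46.5 ± 1.32 to 35.3 ± 0.819 CPM (mean ± SD, n = 3 per group).

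All 4 genes of secreted signals were called lower as well, against the same 22.7% of all genes. Adm, the vasodilator peptide adrenomedullin, had 37, 30 and 22 counts with luciferase and 10, 5 and 9 with SETBP1-D868N (log2 fold change −1.91, SE 0.34), so its level was low throughout. Vegfa, the growth factor of blood vessels, was at 72.8, 83.1 and 87.4 CPM and at 68.7, 68.8 and 71.3 CPM (−0.22, SE 0.064). The gap between the Vegfa groups was narrow, and the call was lost under library-size scaling (−0.17) or without luciferase 2, SETBP1-D868N 1 or SETBP1-D868N 2. Pdgfb, a platelet-derived growth factor chain, changed by −0.51 (SE 0.12), and Nampt, an enzyme of NAD salvage that is also secreted, by −0.35 (SE 0.026).

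Ankrd37, a small ankyrin-repeat protein, stood out among the stress and turnover genes. It went from 10.1, 12.8 and 13.0 CPM to 3.54, 3.68 and 5.65 CPM (−1.47, SE 0.21). Ndrg1, a stress-responsive gene, went from 96.0, 108 and 109 CPM to 58.3, 60.5 and 66.1 CPM (−0.76, SE 0.064). Both showed groups far apart. Ddit4, an inhibitor of mTOR signalling, changed by −0.70 (SE 0.091) and Ier3, an immediate-early gene, by −0.43 (SE 0.044), with Ier3 at 77.0, 82.5 and 85.9 CPM and 60.6, 58.1 and 63.2 CPM. Ankzf1, of ribosome quality control, changed by −0.17 (SE 0.048), a call lost under library-size scaling and without luciferase 2 or 3. Wsb1, a ubiquitin ligase subunit, was not called, at 0.0021 (SE 0.042).

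Of 6 transcription and chromatin genes, 5 were called lower (22.7% of all genes). Bhlhe40, a transcriptional repressor, was among the most abundant members and went from 307 ± 4.29 to 187 ± 10.7 CPM (−0.71, SE 0.038). The nuclear receptor Rora changed by −0.76 (SE 0.11), the histone demethylase Kdm3a by −0.35 (SE 0.062) and Narf, a nuclear protein that binds prelamin, by −0.27 (SE 0.047). Zfp395, a zinc finger protein, went from 32.7, 33.6 and 35.2 CPM to 23.6, 25.6 and 27.6 CPM (−0.40, SE 0.056). Bhlhe41, the relative of Bhlhe40, was at 2.32, 1.97 and 1.99 CPM and at 2.36, 2.57 and 1.34 CPM (−0.0037, SE 0.22), and its mutant libraries spread on both sides of the controls. Gbe1, the glycogen branching enzyme, was at 40.5, 44.1 and 43.9 CPM and at 36.3, 38.4 and 37.3 CPM (−0.20, SE 0.042).

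The mutant libraries did not share the fall equally. Library 3 had the highest level of the mutant group in 24 of 35 members, where it was highest in 31.5% of all genes tested, and in 19 of 21 glycolytic HIF targets. Among the 29 members called lower, it lay nearest to the luciferase mean in 22, and the median ratio to that mean was 0.694, 0.706 and 0.765 in libraries 1 to 3. Luciferase library 1 had the lowest level of its group in 27 of 35 members, against 39.5% of all genes. Without SETBP1-D868N 3, 30 members were called lower and 2 higher, and without luciferase 1 the counts were 29 and 2. Markers of other cells moved too: those of neutrophils (Ly6g, S100a8, S100a9, Ltf and Camp) summed to 14553 to 14971 CPM with luciferase and 7767 to 9478 CPM with SETBP1-D868N. The 6 markers of monocytes and macrophages summed to 762 to 801 and 464 to 495 CPM, and the 5 of neutrophil precursors to 4774 to 5067 and 6484 to 6582 CPM. Markers of mast cells and basophils split, with Mcpt8 and Ms4a2 called higher and Cpa3, Tpsb2 and Fcer1a called lower. Their part in the result was not tested. In bulk RNA, fewer cells of a type and less RNA per cell cannot be told apart.

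**Figure D2:**
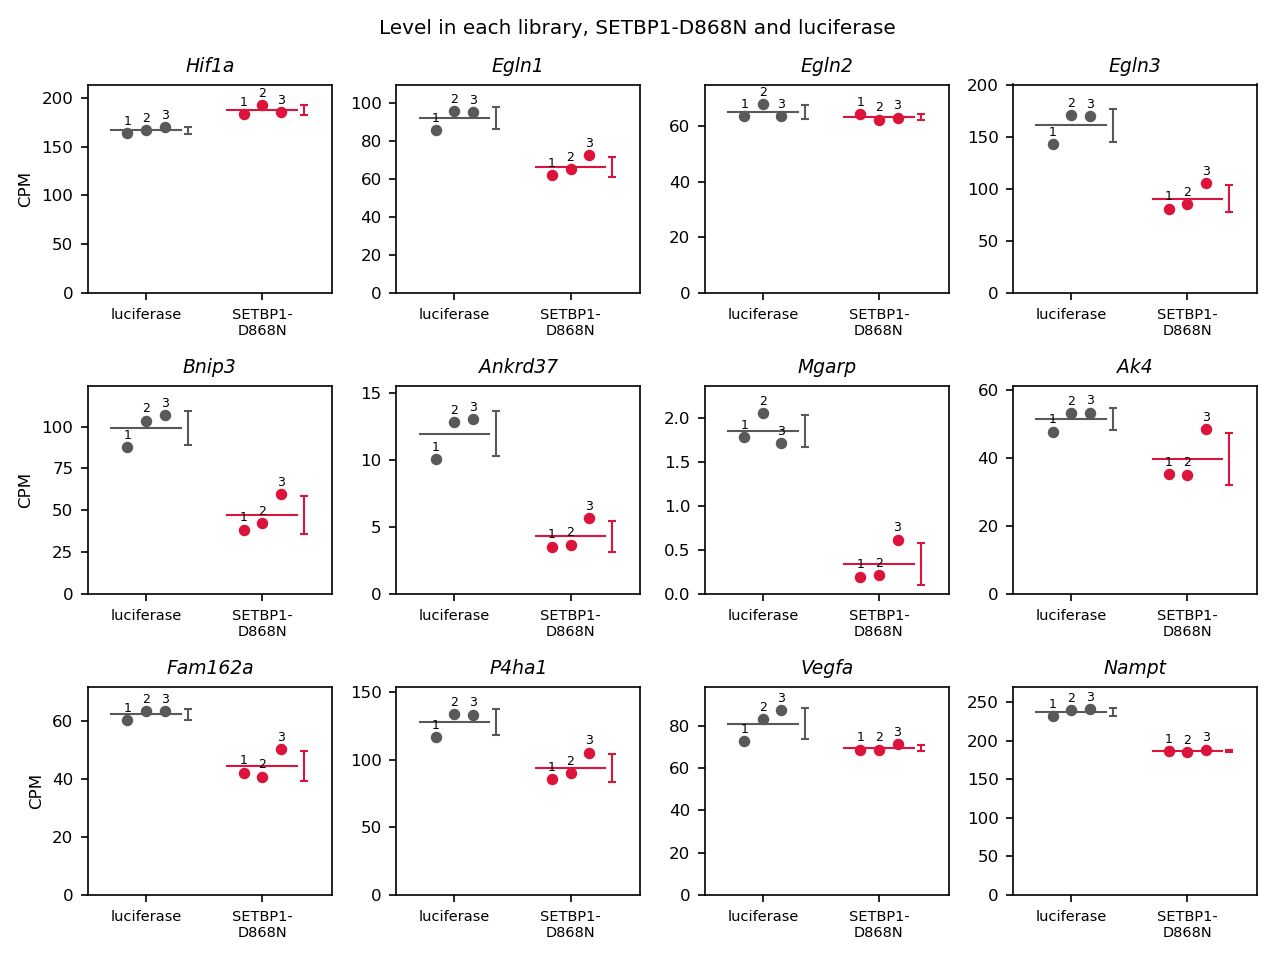
CPM of 12 members in each library of the first experiment, with the library number, the mean (line) and the SD (bar) of 3 libraries per group. Library 3 of SETBP1-D868N is the highest of its group for Egln1, Egln3, Bnip3, Ankrd37, Mgarp and Ak4, while Hif1a is higher with the mutant and Egln2 overlaps.

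The second comparison asked what PF-9363 does in cells that carry SETBP1-D868N. Many HIF targets fell, several of them by more than 10-fold. The share of members called higher was no larger than that of all genes. Among them, Epas1, Arnt, Vhl, Hif1an and Egln2 are parts of the pathway rather than targets. The others are on the list as targets: Bhlhe41 (log2 fold change 2.74), Ier3 (1.32), Wsb1 (0.65), Nampt (0.56) and Bhlhe40 (0.37). Of 34 members tested, 21 were called lower, where 39.4% of all 13456 genes tested were called lower, and 10 were called higher, against 36.6%, with 76.0% of all genes called in either direction. Falls of at least 2-fold numbered 16, against 18.1% of all genes, and rises of at least 2-fold 3, against 15.8%. The median log2 fold change of the members was −0.58, also with Mgarp at its bound, and that of all genes was −0.038. In 21 members every PF-9363 library lay below every DMSO library (36.3% of all genes), and in 9 every one lay above (34.0%). Scaling by library size alone shifted the median gene by −0.23, so changes are relative to the scaling, and it gave 6 members higher and 23 lower. Over all genes the split was 4921 higher and 5307 lower, and 3775 higher and 6653 lower under that scaling. Pdgfb, Ppp1r3c and Ndufa4l2 held at most 10 counts in any library and were not tested.

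The HIF subunits split. Hif1a was at 309, 346, 298 and 296 CPM in DMSO libraries 1 to 4 and at 265, 254, 265 and 269 CPM with PF-9363 (log2 fold change −0.25, SE 0.061), lower in all 4 libraries. Epas1 rose from 7.14, 8.18, 10.3 and 9.53 CPM to 23.2, 23.7, 33.8 and 28.7 CPM (1.62, SE 0.14), about 3.08-fold. Arnt was at 59.6, 62.9, 55.1 and 68.9 CPM and at 74.4, 78.1, 73.2 and 74.4 CPM (0.28, SE 0.075). The Arnt groups stood apart, but the call was lost under library-size scaling (0.054).

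The prolyl hydroxylases parted even more. Egln3 fell from 483, 561, 505 and 616 CPM to 35.4, 41.8, 40.3 and 38.5 CPM, 13.9-fold lower (log2 fold change −3.80, SE 0.082). Egln1 fell from 189, 185, 169 and 207 CPM to 36.8, 40.2, 36.9 and 32.3 CPM, 5.14-fold lower (−2.36, SE 0.078). Egln2 rose from 43.6, 42.9, 43.9 and 46.8 CPM to 62.9, 67.9, 77.5 and 67.1 CPM (0.63, SE 0.080). No PF-9363 library lay within the DMSO range for any of these 3 genes.

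The other regulators of the alpha subunits moved less. Vhl was at 41.4, 42.1, 43.3 and 52.0 CPM and at 57.7, 60.5, 58.8 and 60.1 CPM (0.41, SE 0.083), a call that scaling by library size ended (0.18). Hif1an was at 49.3, 46.4, 45.3 and 51.6 CPM and at 59.2, 50.5, 56.5 and 54.2 CPM (0.20, SE 0.081), with overlapping groups. The Hif1an call was lost without DMSO 2, DMSO 3 or PF-9363 1 and without the expression filter, and library-size scaling turned it to −0.035.

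**Figure D3:**
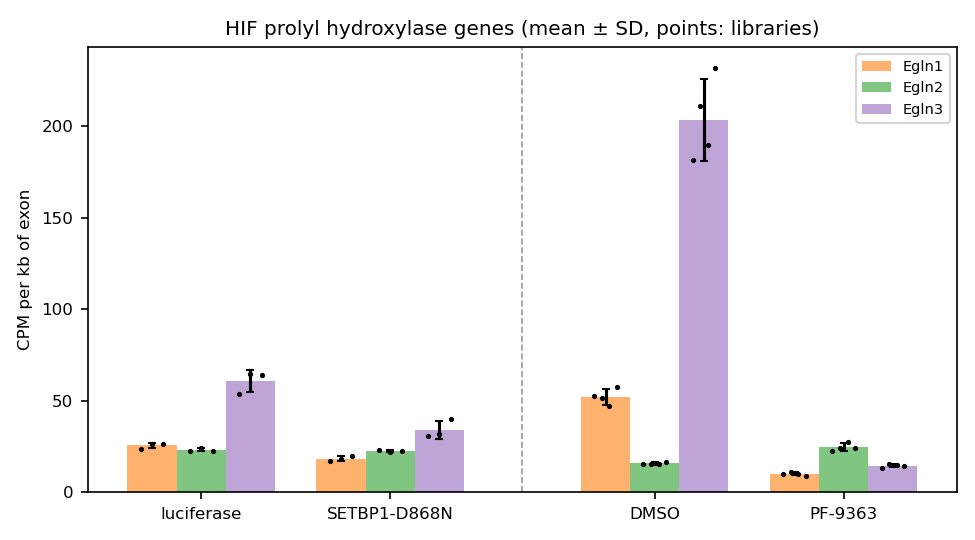
CPM per kb of annotated exon for the 3 HIF prolyl hydroxylase genes in each group (bars: mean, error bars: SD, points: libraries; 3 libraries per group left of the dashed line, 4 right of it, scaled separately on each side). Egln3 is the highest of the 3 in DMSO at 203 and Egln2 is the highest with PF-9363 at 24.6.

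Levels per kilobase used the combined length of all annotated exons of a gene, not of the transcripts present in these cells. Comparisons between genes therefore depend on the annotation. On this scale the order of the hydroxylases differed between DMSO and PF-9363. With DMSO, Egln3 stood at 203 ± 22.5, Egln1 at 52.2 ± 4.39 and Egln2 at 15.8 ± 0.613 CPM per kb (mean ± SD, n = 4). With PF-9363, Egln2 led at 24.6 ± 2.20, followed by Egln3 at 14.7 ± 1.03 and Egln1 at 10.2 ± 0.902. In the first experiment Egln3 led in both groups, at 60.7 ± 5.96 with luciferase and 34.2 ± 4.98 with SETBP1-D868N (n = 3). Egln1 and Egln2 stood close to each other with luciferase, at 25.6 ± 1.598 and 23.2 ± 0.877, and at 18.5 ± 1.49 and 22.6 ± 0.376 with the mutant. Among all members, Bnip3 (281 ± 27.7), Fam162a (221 ± 15.0) and Egln3 were the most abundant per kilobase with DMSO, the latter 2 within their spread of each other. Exons of Bnip3 and Fam162a share 504 and 168 bases with a gene on the opposite strand, whose reads may be included. With PF-9363 the first place was taken by Ier3 (101 ± 11.6).

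The 6 mitochondrial members tested all fell at least 2-fold, as did 18.1% of all genes. Mgarp had 116, 164, 135 and 200 counts with DMSO and 0 in all 4 PF-9363 libraries. From 14.7 ± 3.11 CPM with DMSO it was thus at least 39.4-fold lower, against a floor of 3 counts per library. Ak4 fell from 152, 160.1, 149 and 177 CPM to 2.27, 1.42, 0.934 and 0.976 CPM, 109-fold lower (log2 fold change −6.77, SE 0.14). The DMSO libraries held 1531 to 1952 counts and the PF-9363 libraries 6 to 22, the steepest fall among members with counts in both groups.

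Bnip3 fell from 590.4, 642, 588 and 722 CPM to 42.4, 47.8, 48.1 and 49.0 CPM, 13.6-fold lower (−3.76, SE 0.078). Bnip3l, its relative, fell from 397, 417, 369.9 and 406 CPM to 187, 202, 184 and 203 CPM (−1.03, SE 0.061), so both mitophagy receptors were lower but by different amounts. Fam162a fell from 179.7, 179, 188 and 206 CPM to 16.9, 14.1, 21.5 and 19.3 CPM (−3.40, SE 0.093). Higd1a went from 65.8, 51.9, 69.0 and 70.3 CPM to 25.03, 35.8, 31.8 and 27.4 CPM (−1.11, SE 0.11). None of these groups overlapped.

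**Figure D4:**
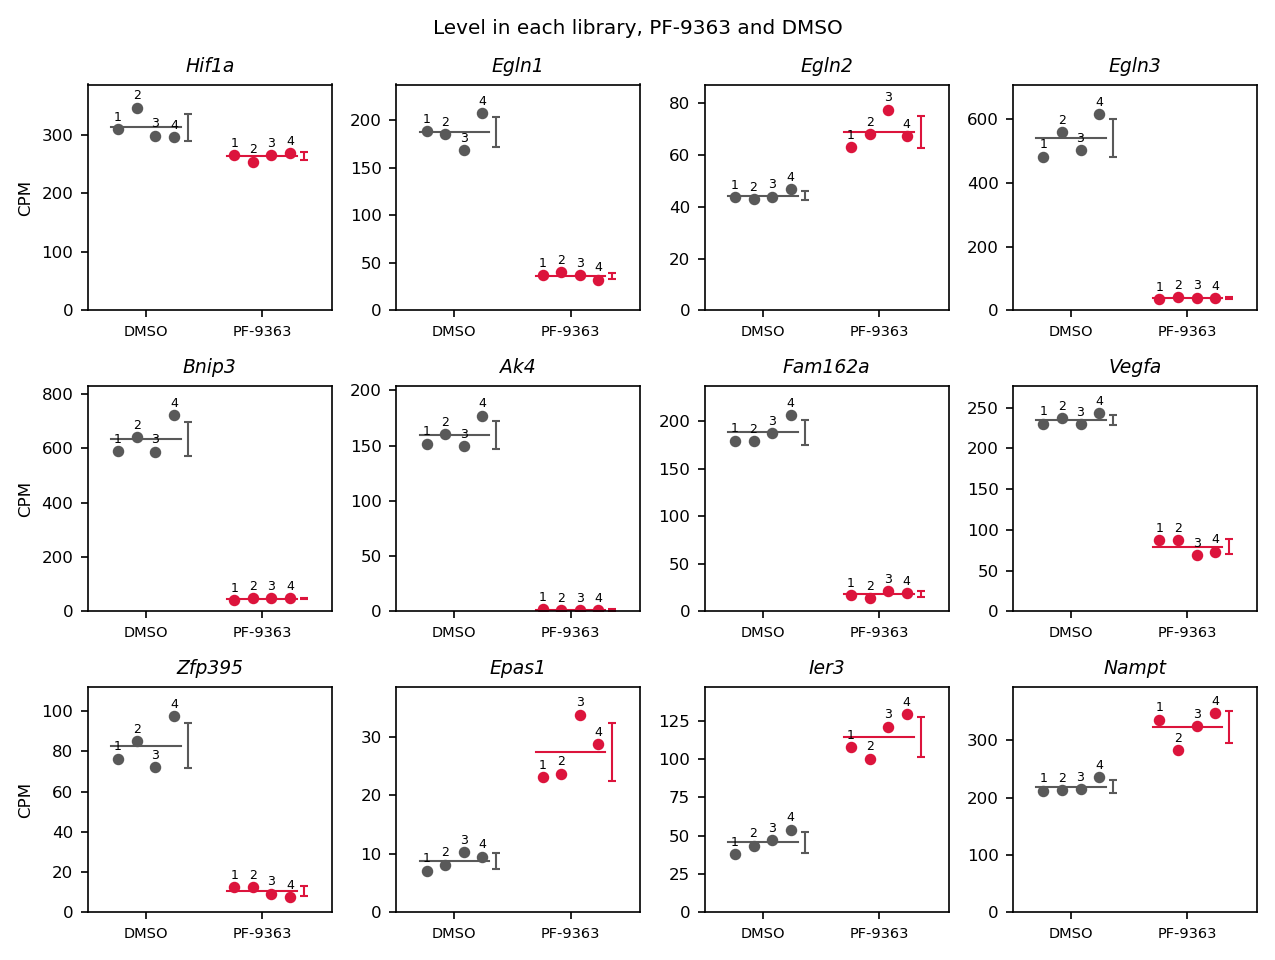
CPM of 12 members in each library of the second experiment, with the library number, the mean (line) and the SD (bar) of 4 libraries per group. Egln1, Egln3, Bnip3, Ak4, Fam162a, Vegfa and Zfp395 are low in all 4 PF-9363 libraries, while Egln2, Epas1, Ier3 and Nampt are high in all 4.

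Secreted signals split. Adm had 58, 78, 59 and 108 counts with DMSO and 2, 0, 1 and 1 with PF-9363, a ratio of 60.0 with an exact 95% counting interval of 23.2 to 222. That interval pools the libraries of each group and leaves out the spread between them. The edgeR log2 fold change of Adm was −5.76 (SE 0.44). Vegfa fell from 230.4, 237, 229.9 and 243 CPM to 87.8, 87.5, 69.3 and 73.3 CPM, 2.95-fold lower (log2 fold change −1.56, SE 0.072). Nampt rose from 219 ± 11.5 to 323 ± 27.9 CPM (0.56, SE 0.065, n = 4 per group).

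Of the collagen hydroxylases, 3 of 4 were called lower, where 39.4% of all genes were. Plod2 fell from 9.22, 13.8, 10.6 and 13.7 CPM to 1.85, 1.93, 3.89 and 2.93 CPM (−2.19, SE 0.22), P4ha2 from 10.2, 9.28, 11.2 and 16.7 CPM to 3.50, 4.00, 5.76 and 5.10 CPM (−1.39, SE 0.20). P4ha1 fell from 153, 175, 168 and 188 CPM to 79.4, 70.6, 69.3 and 74.3 CPM (−1.22, SE 0.071). These 3 genes had separate groups, whereas Plod1 was at 95.5 ± 5.89 and 89.9 ± 5.72 CPM (−0.085, SE 0.070) and was not called, though library-size scaling called it lower (−0.32).

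The transcription and chromatin genes went both ways. Zfp395 fell from 76.4, 85.1, 72.0 and 97.5 CPM to 12.6, 12.6, 9.34 and 7.70 CPM, 7.81-fold lower (−2.97, SE 0.14), and Kdm3a and Narf were called lower by −0.58 (SE 0.068) and −0.31 (SE 0.068). Bhlhe41 rose from 0.496, 1.20, 0.749 and 2.18 CPM to 9.37, 5.67, 7.63 and 8.68 CPM (2.74, SE 0.30), from 5 to 24 counts per DMSO library. Bhlhe40 was at 259.9 ± 26.9 and 336 ± 30.3 CPM (0.37, SE 0.074), a call lost under library-size scaling (0.14), and Rora at −0.017 (SE 0.15) was not called. The pair of related repressors was thus higher, but the change of Bhlhe40 depended on the scaling.

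Stress and turnover genes were as mixed. Ankrd37 fell from 17.4, 16.5, 19.7 and 23.9 CPM to 0.927, 1.16, 0.623 and 2.06 CPM, 15.5-fold lower (−3.96, SE 0.23). Ier3 rose from 38.2, 43.5, 47.1 and 54.1 CPM to 108, 100.3, 121 and 129 CPM (1.32, SE 0.097). Ndrg1, at 143, 175, 145 and 208 CPM and at 148, 157, 161 and 161 CPM, overlapped and was not called (−0.098, SE 0.11), though library-size scaling called it lower (−0.33). Wsb1 was higher by 0.65 (SE 0.066), and Ankzf1 and Ddit4 were lower by −0.59 (SE 0.091) and −0.39 (SE 0.10). Gbe1 fell from 175, 199, 174 and 201 CPM to 80.9, 84.8, 68.3 and 84.6 CPM (−1.23, SE 0.073).

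DMSO library 4 had the highest level of its group in 26 of 34 members, against 26.4% of all genes tested. Without it, 21 members were called lower and 10 higher, the counts of all libraries. Cell type markers moved strongly beside these changes. The 5 markers of neutrophil precursors (Elane, Mpo, Prtn3, Ctsg and Ms4a3) summed to 5701 to 6825 CPM with DMSO and 289 to 456 CPM with PF-9363. The 6 of monocytes and macrophages (Csf1r, Adgre1, Cd68, Mrc1, C1qa and Ms4a7) summed to 392 to 483 and 2914 to 3519 CPM. The 5 of mast cells and basophils (Cpa3, Mcpt8, Tpsb2, Fcer1a and Ms4a2) summed to 805 to 1019.9 and 3428 to 4287 CPM. Among them, Cpa3 went from 420 to 2680 CPM. Mcpt8, at 328 and 299 CPM, was not called, and the others were called higher. The 4 of megakaryocytes summed to 41.7 to 48.6 and 214 to 234 CPM, most of it Itga2b. Markers of mature neutrophils went different ways. S100a8 and S100a9, the most abundant of them, were not called, Ly6g (1.44) and Ltf (1.11) were higher and Camp (−2.15) was lower on the log2 scale. The endothelial and stromal markers Cdh5, Col1a1 and Pdgfra averaged at most 1.62 CPM in either group, and Pecam1, which blood cells also express, went from 539 to 402 CPM. Their part in the changes of the HIF targets was not tested.

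No library was shared between the experiments, so each member's pair of changes can be set side by side. Called lower in both comparisons were 19 of the 34 members tested in both, where 4.40% of the 12376 genes tested in both were called lower in both. They were Egln1, Egln3, Bnip3, Bnip3l, Ankrd37, Mgarp, Vegfa, Adm, P4ha1, P4ha2, Plod2, Kdm3a, Ddit4, Higd1a, Narf, Ankzf1, Fam162a, Gbe1 and Zfp395. Called lower with SETBP1-D868N and higher with PF-9363 were 6 members, Epas1, Arnt, Vhl, Bhlhe40, Ier3 and Nampt, against 16.8% of all genes. Hif1a was higher and then lower, and Hif1an was called higher in both. Egln2, Bhlhe41 and Wsb1, not called in the first comparison, were higher in the second, and Ak4 was lower. The members were chosen with both results known, so these counts describe the list.

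**Figure D5:**
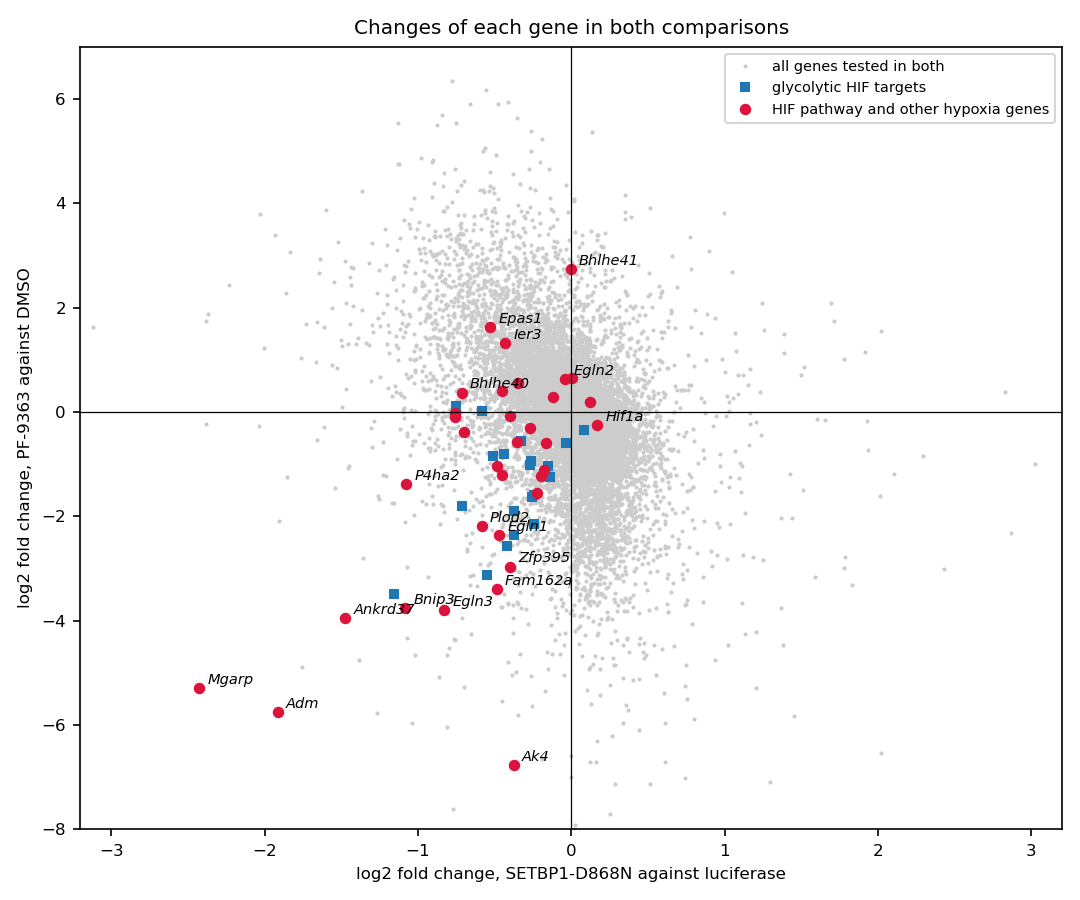
Log2 fold change with PF-9363 (vertical) against that with SETBP1-D868N (horizontal) for all genes tested in both (grey, 20 lie outside the axes), glycolytic HIF targets (blue) and the members (red; Mgarp at its bound). Most HIF targets lie at the lower left, and Epas1, Ier3 and Bhlhe40 at the upper left.

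Other genes of the pathway were examined through 3 lists of genes that are not members. Over all genes tested, 22.7% were called lower and 24.5% higher with SETBP1-D868N, and 39.4% and 36.6% with PF-9363. Of the glycolytic HIF targets (21 genes), 17 were called lower and 1 higher with SETBP1-D868N (the median of their log2 fold changes was −0.37), and 18 of 20 tested were called lower and 0 higher with PF-9363 (median −1.14). The first count varied from 10 called without luciferase 3 to 20 without SETBP1-D868N 3. Without luciferase 2 or SETBP1-D868N 1 or 2 it was 11. Other hypoxia targets (26 genes) gave 11 lower and 6 higher of 23 tested with SETBP1-D868N (median −0.19), and 15 lower and 3 higher of 20 tested with PF-9363 (median −0.55). Regulators of HIF (16 genes) gave 1 lower and 5 higher with SETBP1-D868N (median 0.024), and 9 lower and 4 higher of 15 tested with PF-9363 (median −0.22).

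Only genes whose group mean reached 5 CPM on the higher side are named. With SETBP1-D868N, the largest called falls at that level were in Aldoc, a glycolytic aldolase (50.8 ± 3.08 to 22.8 ± 3.01 CPM, log2 fold change −1.16, edgeR adjusted p 1.64e-04), Edn1, the vasoconstrictor endothelin (−0.87), and Slc2a3, a glucose transporter (−0.75). The largest called rises at that level were in Cited4, which competes for the coactivators of HIF (0.67), Car12, a carbonic anhydrase (0.55), and Angptl4, a secreted inhibitor of lipoprotein lipase (0.52). With PF-9363, Hif3a, an alpha subunit that can restrain the others, fell from 22.3 ± 4.22 to 0.659 ± 0.335 CPM (log2 fold change −4.99, SE 0.24, edgeR adjusted p 6.42e-17). Cited4 fell by 4.49 on the log2 scale. The coactivator gene Crebbp rose from 35.5 ± 6.05 to 139 ± 9.50 CPM (1.97, SE 0.093, edgeR adjusted p 8.27e-15). Pgf, a relative of Vegfa, and Hmox1, which breaks down heme, rose by 2.03 and 1.71. Cited4 was thus called higher in the first comparison and lower in the second.

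Positions of the most changed members in GRCm38, from GENCODE M21, were chromosome 3, 51388412 to 51396738 for Mgarp, chromosome 4, 101419277 to 101466995 for Ak4, chromosome 7, 138890836 to 138909519 for Bnip3 and chromosome 12, 54178981 to 54203860 for Egln3. Exons of 13 of the 37 members share bases with a gene on the opposite strand, up to 1280 bases for Bhlhe41, 683 for Higd1a, 505 for Ankzf1 and 504 for Bnip3. How strand was treated in the counting is not given in the sources used here, so reads of such partners cannot be told apart from those of the member. GENCODE also names pseudogene copies of Vhl (Vhl-ps1) and Bnip3l (Bnip3l-ps), and how reads shared with them were counted is not given either.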

How the data were processed

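Each experiment has 1 deposited table of unnormalized counts by gene symbol, and the values are whole numbers. STAR, DESeq2 and the builds GRCm38 and mm10 are named in the submitters' processing notes, with no role. The counting program, annotation and strand handling are not given in the sources used here. The labels' protocols give 500 ng of RNA and a Watchmaker library kit for the first experiment and 100 ng with libraries by Novogene for the second, so the experiments were never compared library by library.

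From the counts, filterByExpr of edgeR 4.0.16 in R 4.3.3 (minimum count 10, minimum total 15) kept 15794 and 13456 genes. The quasi-likelihood test used TMM scaling and the group as factor. Lists of members and other pathway genes were chosen with earlier results of these data known. Members with the 20 largest changes, the subunits and the oxygen sensors are given in every library, and from the other lists the 3 largest called changes per comparison and direction at 5 CPM or more. A gene that this rule also names is not reported here. Alternatives were RLE or library-size scaling, other filters, DESeq2 1.42.0, limma-voom (limma 3.58.1), no robust estimation, a replicate block and leaving out each library. On simulated data with 200 genes changed 2-fold, 88.3% of the changed genes tested were recovered among 15624 genes in the first comparison (8.90% of calls were false) and 87.3% among 13278 genes in the second (6.01% false). Both false shares were above the level that the adjusted p threshold aims at. In the data 47.2% and 76.0% of genes were called, so the simulation did not check the scaling under changes this broad. A count of 0 allowed up to 0.0436 to 0.0499 CPM in the first experiment and 0.290 to 0.424 CPM in the second, on unscaled totals (3 counts, counting error only).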

Additional observations from a re-analysis of the deposited data

Results flagged for a closer look

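Of 68 groups of 4 libraries examined over the members of the second experiment, 1 held a library far from the rest. Nampt stood at 236 CPM in DMSO library 4 and at 212 to 215 CPM in the other DMSO libraries. Chance alone flags about 5% of such groups. The level in DMSO 4 was still below those of all PF-9363 libraries.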

How the results depend on the processing

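Counts of members called lower kept within 25 to 30 with SETBP1-D868N and within 21 to 23 with PF-9363 over all alternatives. Members called higher stayed at 2 with SETBP1-D868N. With PF-9363 they were 10, 9 to 10 on leaving out 1 library, and 6 under library-size scaling. The Hif1an call was lost without DMSO 2, DMSO 3 or PF-9363 1 and without the filter. Glycolytic HIF targets called with SETBP1-D868N ranged from 10 to 20 when 1 library was left out; the cause was not tested. No pairing by replicate number was visible. The deviations of same-numbered libraries correlated at −0.097 to −0.037 for SETBP1-D868N and luciferase, and at −0.040 to 0.0075 for PF-9363 and DMSO. With so few libraries per group, these values cannot show that the libraries were unpaired. With the replicate number as a block, 30 members were lower and 2 higher with SETBP1-D868N and 21 lower and 10 higher with PF-9363, and Ak4 was the member whose call changed (−0.39, called lower with SETBP1-D868N). Of 490 values of single members under alternatives in the first comparison 462 kept direction and call, and of 544 in the second 526. Signs turned for members that were not called: with SETBP1-D868N, Bhlhe41 under library-size scaling (0.046) and on leaving out 1 library (−0.18 to 0.23), Egln2 under library-size scaling (0.0086), and Wsb1 under RLE (−0.0058), a mean count of at least 10 (−0.0031), DESeq2 (−0.0058) and leaving out 1 library (−0.037 to 0.033). With PF-9363, Rora turned under RLE (0.0088), DESeq2 (0.0079) and leaving out 1 library (−0.10 to 0.051), and Ndrg1 without DMSO 4 (0.018, the range on leaving out 1 library being −0.17 to 0.018). Hif1an, called higher, turned under library-size scaling (−0.035). Adm, Mgarp and Bhlhe41 were limited by depth, with few counts in at least 1 group.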
